A study of Rattus norvegicus with 6 samples.

Results

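The transcripts described here are those of 8 rat selenoproteins: selenoprotein P (Selenop, formerly Sepp1), the glutathione peroxidases Gpx1, Gpx3 and Gpx4, and Selenow (formerly Sepw1), Selenof (formerly Sep15), Selenos and Selenok. They were read from every probe set whose platform annotation names exactly 1 gene and that gene is one of the 8, which gave 10 probe sets of 31099 on the array and 8 of 14217 genes that have such a probe set. The cells were UMR106-01, a rat osteosarcoma line with osteoblast properties, and each culture was hybridized to 1 Affymetrix rat array. All cultures grew in 10% fetal bovine serum, were re-fed at 64 h with 6.5 mM beta-glycerol phosphate, a phosphate source that lets the matrix mineralize, and were lysed at 76 h. The AEBSF group (3 cultures) also had AEBSF, which blocks serine proteases irreversibly, at 400 µM for the last 12 h, and the mineralizing group (3 cultures) had none. The series sets the inhibitor against mineralizing conditions alone, in 1 tumour-derived line, and the labels describe no culture without beta-glycerol phosphate.

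Selenoproteins carry selenocysteine, an amino acid that the ribosome inserts at a UGA codon when a hairpin in the 3′ untranslated region of the mRNA recruits the binding protein Secisbp2, the elongation factor Eefsec and a dedicated tRNA. Most of them are redox enzymes with selenocysteine at the active site. Selenop differs from the others in holding many selenocysteines: it is secreted, chiefly by the liver, carries selenium to other tissues and is taken up there by receptors of the LDL receptor family. When selenium is short, cells keep some of these mRNAs and lose others, and Gpx1 mRNA is known as one of those lost early.

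Selenop was the member with the largest difference. Its signal was 2.28-fold lower with AEBSF (log2 fold change -1.19, SE 0.10), 7 of 9864 tested genes, itself included, were as far down or farther, and 23 genes past the threshold were at least 2-fold lower. Gpx4 stood higher with AEBSF, by 1.17-fold, and Selenos lower, by 1.20-fold. The other 5 members had log2 fold changes between -0.25 and -0.04. In the limma fit over all probe sets, 3 of 8 members passed an adjusted p of 0.05, 2 lower and 1 higher, where 16.3% of all tested genes passed, 9.22% lower and 7.09% higher. By probe set, 3 of 9 tested passed, where 13.4% of all tested probe sets did, 7.41% lower and 5.99% higher. The members were selected on the fold changes of this same contrast, so their values are a description, nothing is read from these counts and no test of them is given.

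The 250 bases upstream of the annotated start were taken from RefSeq (rat assembly GRCr8). They are printed for the 3 members past the threshold, Selenop, Gpx4 and Selenos, only as a choice of what to show. All 8 members had an entry, with 11 annotated starts in all. For Selenop, which has 2 annotated starts, and Gpx4, which has 3, the most upstream start is shown, and for Selenop a 30-base stretch before the other start follows. Capitals mark motif letters found on either strand: CCAAT (the CCAAT box) and CCACG (the ATF6 part of the ER stress response element) in the 250-base sequences, and GTAAACA (the forkhead core that FOXO factors bind) and TATAAA (the TATA box) in the 30-base stretch. The lowercase Selenop sequence held none of the 6 motifs searched.
Selenop, chr2:54225486-54225735, plus strand: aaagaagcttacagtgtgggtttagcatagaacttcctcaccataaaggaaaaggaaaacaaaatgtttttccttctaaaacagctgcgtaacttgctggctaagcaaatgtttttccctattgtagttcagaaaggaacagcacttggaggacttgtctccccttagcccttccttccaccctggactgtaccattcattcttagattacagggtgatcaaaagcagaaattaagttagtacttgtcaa
Selenop other start, chr2:54225864-54225893, plus strand: gcgagGTAAACAagagggcTATAAAtgtca
Gpx4, chr7:10303630-10303879, minus strand: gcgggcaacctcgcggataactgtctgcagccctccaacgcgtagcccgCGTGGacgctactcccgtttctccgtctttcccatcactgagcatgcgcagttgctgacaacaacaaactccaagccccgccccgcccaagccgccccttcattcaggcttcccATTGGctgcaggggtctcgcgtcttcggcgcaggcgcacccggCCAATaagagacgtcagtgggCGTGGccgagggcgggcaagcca
Selenos, chr1:129069990-129070239, plus strand: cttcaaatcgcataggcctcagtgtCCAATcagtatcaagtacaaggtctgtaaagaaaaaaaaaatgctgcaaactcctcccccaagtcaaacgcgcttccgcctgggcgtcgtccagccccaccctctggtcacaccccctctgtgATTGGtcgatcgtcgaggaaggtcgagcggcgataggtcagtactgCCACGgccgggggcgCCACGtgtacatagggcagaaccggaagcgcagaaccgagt

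The forkhead core lay 43 bases and the TATA box 29 bases before the second annotated Selenop start. FOXO factors and HNF4 are known to drive the human gene in liver cells. Of 33469 promoter windows of 300 bases in the RefSeq table, 3.78% held GTAAACA, 14.2% TATAAA, 37.5% CCAAT and 31.6% CCACG on either strand. These windows also hold bases after the start, which the printed 250 bases do not. The antioxidant response element core TGACNNNGC was in 12.1% of windows and, among the members, in that of Selenok alone, which held it at 2 places. The full ER stress response element, which is known from the human SELENOS promoter and is spelled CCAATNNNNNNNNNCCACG, was in 0.0657% of windows and in none of the members' windows. Members not printed held the same letters upstream: Selenof had CCAAT, Selenok CCAAT and CCACG, and Selenow CCACG and TATAAA. Gpx1 and Gpx3 held none of the motifs upstream. So these letters do not set the printed members apart. A CCAAT or CCACG match can lie inside a full element, and a match is a description of letters only.

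The signals printed below are MAS5 signals, 1 value per probe set and array on a linear scale, which the submitters' software had already scaled so that each array has the same trimmed mean. They compare cultures for 1 probe set and say nothing of the amounts of different mRNAs. Fold changes are of log2 signals, AEBSF minus mineralizing, and SE is the standard error from limma. Because whole cultures were lysed, fewer cells with a transcript and less of it per cell cannot be told apart.

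Selenop (1368806_at) read 285, 331 and 311 in the AEBSF cultures, against 696, 665 and 753 in the mineralizing cultures. All 3 AEBSF values lay below all 3 mineralizing values, with a gap far wider than the spread inside either group. The means were 309 ± 23.1 with AEBSF and 705 ± 44.7 in mineralizing cultures (SD, n = 3 cultures each). Leaving out any 1 array kept the log2 fold change between -1.24 and -1.13. The second Selenop probe set (1387339_at) read 15.7, 1.06 and 2.21 with AEBSF, against 16.5, 20.4 and 28.9 in mineralizing cultures. It lay below the signal filter of 67.2 and was not tested, and its AEBSF values lay below the mineralizing ones with a near contact at 15.7 and 16.5.

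**Figure D1:**
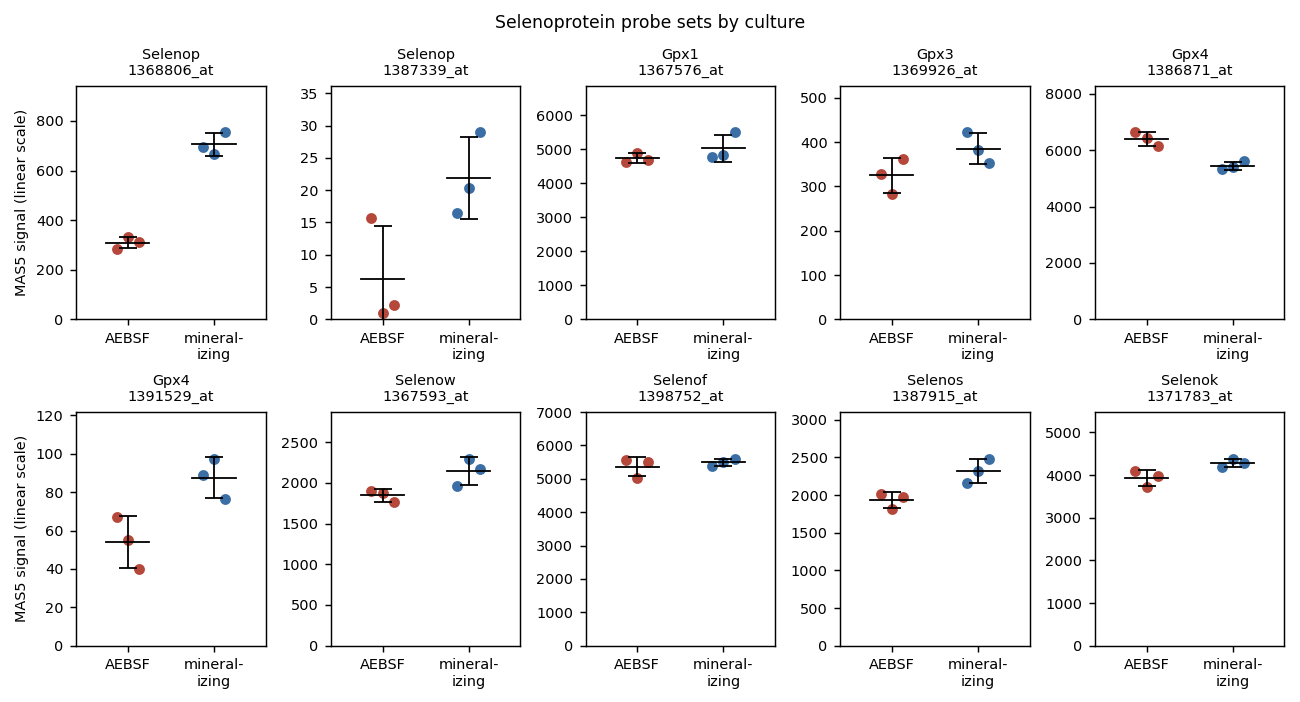
MAS5 signal (linear scale, each panel from 0) of the 10 probe sets of the 8 selenoproteins, with AEBSF cultures at left and mineralizing cultures at right. Points are cultures, and bars give the mean and SD of 3 cultures, with the lower SD bar of 1387339_at cut off at 0. Selenop 1368806_at sits near 309 with AEBSF and near 705 in mineralizing cultures, while most other panels differ little.

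The glutathione peroxidases use glutathione to reduce peroxides, and the 3 members of that family differed in how their groups lay: Gpx4 had groups that did not overlap, while those of Gpx1 and Gpx3 did. Gpx4, which reduces lipid peroxides inside membranes and guards against ferroptosis, read 6627, 6415 and 6141 with AEBSF, against 5338, 5391 and 5605 in mineralizing cultures (1386871_at; log2 fold change 0.23, SE 0.05). Every AEBSF value of this probe set lay above every mineralizing one. A dim second probe set (1391529_at) ran the other way, at 67.0, 55.1 and 40.1 with AEBSF and 89.0, 97.4 and 76.4 in mineralizing cultures (log2 fold change -0.72, SE 0.27). Its AEBSF signals all lay below the filter of 67.2 and its mineralizing signals all above it. The filter uses the mean over both groups, so this probe set passed it only through the mineralizing cultures. Averaging both probe sets turned the Gpx4 value to -0.24, so the direction for Gpx4 rests on the bright probe set.

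Gpx1, the cytosolic enzyme that removes hydrogen peroxide, read 4613, 4906 and 4689 with AEBSF, against 4786, 4834 and 5496 in mineralizing cultures. The ranges overlapped, and the log2 fold change was -0.09 (SE 0.06). Gpx3, the secreted plasma form made mainly by the kidney, read 329, 283 and 362 with AEBSF, against 422, 383 and 352 in mineralizing cultures (log2 fold change -0.25, SE 0.12). Its ranges also overlapped, since the lowest mineralizing culture lay under the highest AEBSF culture.

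3 members sit in the endoplasmic reticulum (ER). Selenos, a membrane protein that ties the ATPase Vcp to the machinery drawing misfolded proteins out of the ER, read 2010, 1817 and 1979 with AEBSF, against 2160, 2326 and 2483 in mineralizing cultures (log2 fold change -0.26, SE 0.07). Selenok, a membrane protein that assists the palmitoyl transferase Zdhhc6, read 4106, 3727 and 3977 with AEBSF, against 4190, 4382 and 4287 in mineralizing cultures (log2 fold change -0.12, SE 0.05). In both genes every AEBSF value lay below every mineralizing value, by a small margin. Selenof, which binds the glycoprotein folding sensor UGGT in the ER lumen, read 5577, 5039 and 5489 with AEBSF, against 5392, 5500 and 5601 in mineralizing cultures, and the ranges overlapped (log2 fold change -0.04, SE 0.05).

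Selenow, a small thioredoxin-fold protein abundant in muscle and brain, read 1906, 1874 and 1760 with AEBSF, against 1959, 2297 and 2174 in mineralizing cultures (log2 fold change -0.21, SE 0.07). The groups did not overlap, with 1906 and 1959 as the nearest values. Over the brightest probe set of each member, groups did not overlap in 5 of 8 genes, 4 of them lower with AEBSF, where 36.1% of all tested genes had groups that did not overlap, 19.1% lower and 17.0% higher. The median log2 fold change was -0.17 over the 8 members and 0.002 over all tested genes.

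The size of the small differences depended on how the arrays were scaled. The bacterial and phage hybridization controls, spiked in as standards, read 0.15 higher on the log2 scale on the AEBSF arrays, and scaling to them moved the median of all tested genes to -0.14 from 0.002. With that scaling Selenop had -1.34, Selenos -0.41, Selenow -0.36 and Selenok -0.27, and Gpx4 had 0.09. Over the 17 alternatives the log2 fold change ran from -1.94 to -1.04 for Selenop and from -0.41 to -0.21 for Selenos. For Gpx4 it ran from -0.24 to 0.26. The Selenop value of -1.94 came from averaging in its second probe set, which lay below the filter. Selenos and Gpx4 did not pass the limma threshold under every alternative. The members were selected on this contrast, so no weight is put on their passes.

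**Figure D2:**
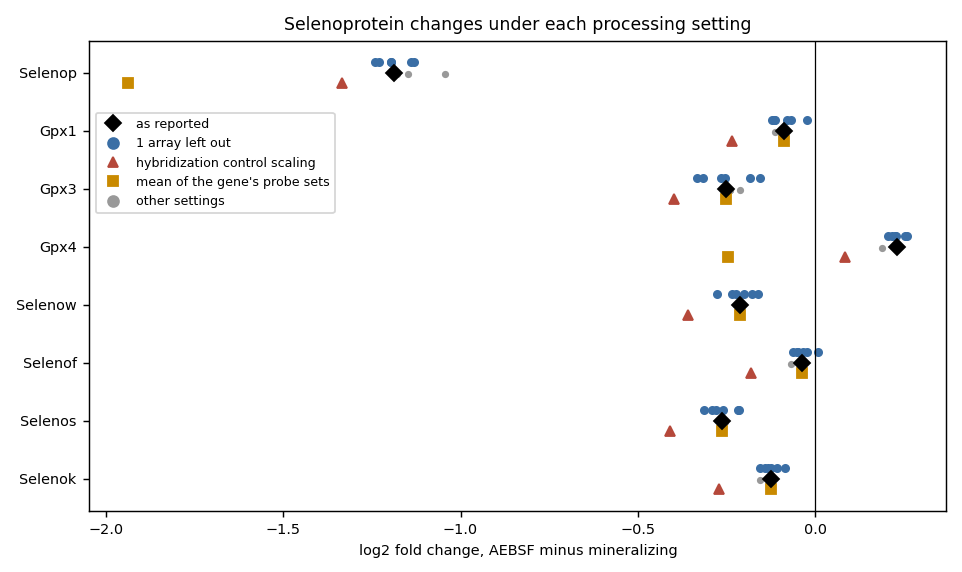
Log2 fold change, AEBSF minus mineralizing, of the brightest probe set of each selenoprotein as reported (diamonds), with 1 array left out, with arrays scaled to hybridization controls, with the mean of the gene's probe sets and under the other settings. Selenop lies between -1.94 and -1.04 throughout, with -1.94 only when its second probe set, below the signal filter, is averaged in. Gpx4 turns to -0.24 when its probe sets are averaged.

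Genes whose signal followed that of Selenop most closely over the 6 arrays were Trim30d, Lrrc28, Cyp51, Itpr1 and Col24a1, with Pearson correlations of log2 signal of 0.998, 0.997, 0.996, 0.996 and 0.995 among 9863 tested genes. The arrays fall into the 2 groups, so any gene with a clean difference scores high: 361 genes had a correlation above 0.95. Trim30d, the closest, read 211, 233 and 238 with AEBSF and 447, 423 and 475 in mineralizing cultures. Itpr1 is also on the list of partners below.

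The remaining selenoproteins were taken as a list of 16, of which 10 were tested, 4 lay below the filter and 2, Selenoo and Selenov, had no probe set with 1 symbol. The deiodinases Dio1, Dio2 and Dio3, which activate or inactivate thyroid hormone, and the intestinal Gpx2 were the 4 below the filter. Txnrd1, the cytosolic thioredoxin reductase, was the 1 gene that rose, 0 fell, and the other 9 missed the threshold, or 10% called against 16.3% of all tested genes. The median log2 fold change of the list was -0.07. With hybridization scaling 0 passed higher and 1 lower.

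Txnrd1 (1398791_at) read 3887, 3544 and 3298 with AEBSF, against 2786, 2887 and 3294 in mineralizing cultures (log2 fold change 0.26 ± 0.08 SE; by limma, adjusted p = 0.0428). The groups came within a few units of each other, at 3298 and 3294. Its second probe set (1386958_at) also rose, to 2573 ± 170.3 with AEBSF, against 1981 ± 135 in mineralizing cultures (log2 fold change 0.38, limma adjusted p = 0.00479). The call on the brighter probe set was lost under 9 of 17 alternatives: with AEBSF culture 1 or 2 left out (limma adjusted p = 0.142 and 0.0775), with mineralizing culture 1 or 2 left out (0.156 and 0.136), and with median centring, hybridization scaling, no filter, a constant prior or the replicate block.

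Selenot, an ER and Golgi protein with a thioredoxin fold, read 6986, 7073 and 7575 with AEBSF, against 6295, 6472 and 6486 in mineralizing cultures, and did not pass (log2 fold change 0.17, limma adjusted p = 0.0526). Selenoh, found in the nucleolus, averaged 4113 ± 53.9 with AEBSF and 4453 ± 274 in mineralizing cultures (-0.11, limma adjusted p = 0.213). Sephs2, the selenoprotein that makes selenophosphate for selenocysteine synthesis, read 1528, 1223 and 1613 with AEBSF, against 1624, 1621 and 1852 in mineralizing cultures (-0.23, limma adjusted p = 0.139). Groups of these 3 genes did not overlap, though none passed. Among the 10 tested genes of the list, groups of 5 did not overlap, where 36.1% of all tested genes had such groups.

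**Figure D3:**
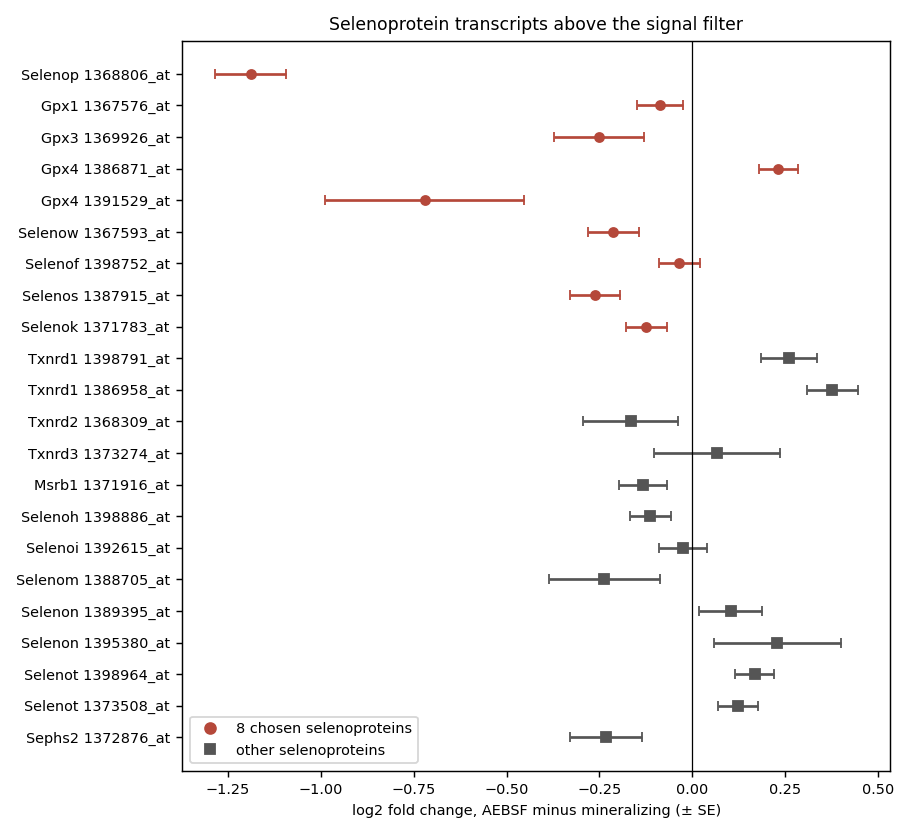
Log2 fold change, AEBSF minus mineralizing, with its SE for each probe set above the signal filter, the 8 chosen selenoproteins as circles above and the other selenoproteins as squares below. Selenop at -1.19 lies farthest from 0. The dim Gpx4 probe set 1391529_at is next, at -0.72 with an SE of 0.27, and both Txnrd1 probe sets lie above 0.

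Selenocysteine is made on its own tRNA, which is charged with serine, phosphorylated by Pstk and converted by Sepsecs. Of 12 genes for this synthesis and for insertion at the ribosome, 11 were tested, 1 rose, 1 fell and the other 9 missed the threshold, or 18.2% called, close to the 16.3% of all tested genes, and the median log2 fold change was -0.01. With hybridization scaling 0 passed higher and 3 lower. Trnau1ap, which binds the selenocysteine tRNA, rose to 2350 ± 173 with AEBSF, against 1875 ± 224 in mineralizing cultures (log2 fold change 0.33 ± 0.09 SE; by limma, adjusted p = 0.026). Sars1, the seryl-tRNA synthetase that supplies this tRNA and those for serine, fell to 3947 ± 33.7 with AEBSF, against 4547 ± 83.3 in mineralizing cultures (-0.20 ± 0.05 SE, limma adjusted p = 0.0187).

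Both calls depended on the setting. The Trnau1ap call was lost with AEBSF culture 1 or 2 or mineralizing culture 1 or 3 left out (limma adjusted p = 0.0705, 0.0758, 0.105 and 0.0727), and with hybridization scaling, no filter or a constant prior (0.243, 0.0555 and 0.124). The Sars1 call was lost with mineralizing culture 1 or 2 left out (limma adjusted p = 0.0761 and 0.0696), and with median centring, a constant prior or the replicate block (0.0597, 0.102 and 0.05). The insertion factors Secisbp2 and Eefsec had log2 fold changes of -0.05 and 0.05 (limma adjusted p = 0.758 and 0.806). A dimmer probe set of Secisbp2l, a relative of Secisbp2, read 185, 139 and 194 with AEBSF, against 95.7, 104 and 92.1 in mineralizing cultures, and passed (log2 fold change 0.82, limma adjusted p = 0.0155). The brighter probe set, which represents the gene in the counts, stood at -0.001, so the result for Secisbp2l depends on the probe set.

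The next list held receptors that take up Selenop and proteins that work with other members, among them Selenos, Selenok and Selenof. Of its genes 16 were tested, 4 rose, 4 fell and 8 missed the threshold. That is 50% against 16.3% of all tested genes, with a median log2 fold change of -0.07. The list was chosen with earlier results of these data known, so this share is a description and nothing is read from it. With hybridization scaling the split was 1 higher and 6 lower. Lrp8, the Selenop receptor of brain and testis, rose, with 602, 652 and 671 in AEBSF cultures against 466, 431 and 360 in mineralizing cultures (1.54-fold; log2 fold change 0.62 ± 0.11 SE; by limma, adjusted p = 0.00348). Lrp1, a receptor of many ligands that takes up Selenop in mouse muscle, fell, with 825, 646 and 700 in AEBSF cultures against 1476, 1252 and 1288 in mineralizing cultures (1.85-fold; -0.89, SE 0.10, limma adjusted p = 0.000261). So these 2 receptor transcripts went in opposite directions, each with groups that did not overlap.

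The Lrp8 rise passed under all 17 alternatives, with log2 fold changes between 0.48 and 0.70 (limma adjusted p between 0.00249 and 0.0354). The Lrp1 fall passed under 16 of 17 and was lost with the mean of its probe sets (-0.24, limma adjusted p = 0.777). Its second probe set read between 5.13 and 69.5 and lay below the filter. Lrp2, the megalin that recovers Selenop in the kidney, read 161, 132 and 163 with AEBSF, against 187, 189 and 177 in mineralizing cultures, and did not pass (limma adjusted p = 0.246).

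Around Selenos, the ATPase Vcp and its cofactors Nploc4 and Ufd1, which pull ubiquitinated proteins from the ER membrane, rose. Nploc4 read 2772, 2723 and 2607 with AEBSF, against 2209, 2136 and 2017 in mineralizing cultures (log2 fold change 0.35 ± 0.06 SE; by limma, adjusted p = 0.00285), and its second probe set also rose (0.47, limma adjusted p = 0.00899). Vcp and Ufd1, named after their values were seen, rose by 0.24 and 0.21 on the log2 scale (limma adjusted p = 0.0191 and 0.0351). The second Ufd1 probe set did not pass (0.12, limma adjusted p = 0.206), nor did the mean of both (0.0672), and Ufd1 passed under 7 of 17 alternatives in all. With hybridization scaling none of the 3 passed (limma adjusted p = 0.173 for Nploc4, 0.507 for Vcp and 0.722 for Ufd1). Vcp passed under 11 of 17 alternatives. It was also lost without AEBSF culture 1 (0.0705) or mineralizing culture 1 or 2 (0.078 and 0.0729), and with median centring or a constant prior (0.0584 and 0.111). Ufd1 was lost without AEBSF culture 2 (0.101) or mineralizing culture 1, 2 or 3 (0.101, 0.107 and 0.0803). Derl1, Derl2 and Syvn1, on the same list, did not pass (log2 fold changes 0.05, -0.24 and -0.31, limma adjusted p = 0.611, 0.0567 and 0.0583). A second Derl2 probe set fell (-0.32, limma adjusted p = 0.035).

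Sel1l, a scaffold of the ubiquitin ligase on which Selenos acts, fell, with 1336, 1126 and 1223 in AEBSF cultures against 1846, 1742 and 1831 in mineralizing cultures (log2 fold change -0.56 ± 0.07 SE; by limma, adjusted p = 0.000674). Of the partners of Selenof, Uggt2 fell to 454 ± 37.6 with AEBSF, against 658 ± 27.2 in mineralizing cultures (-0.54 ± 0.09 SE, limma adjusted p = 0.00322), and Uggt1 did not pass (-0.19, limma adjusted p = 0.319). The 2 were not tested against each other.

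Beside Selenok, whose help to Zdhhc6 is known in mouse immune cells to let the IP3 receptor be palmitoylated, the receptor gene Itpr1 fell. It read 1275, 1304 and 1332 with AEBSF, against 1843, 1776 and 1881 in mineralizing cultures (log2 fold change -0.49 ± 0.06 SE; by limma, adjusted p = 0.000459). Zdhhc6 itself did not pass (0.10, limma adjusted p = 0.31). The falls of Sel1l, Uggt2 and Itpr1 passed under all 17 alternatives.

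**Figure D4:**
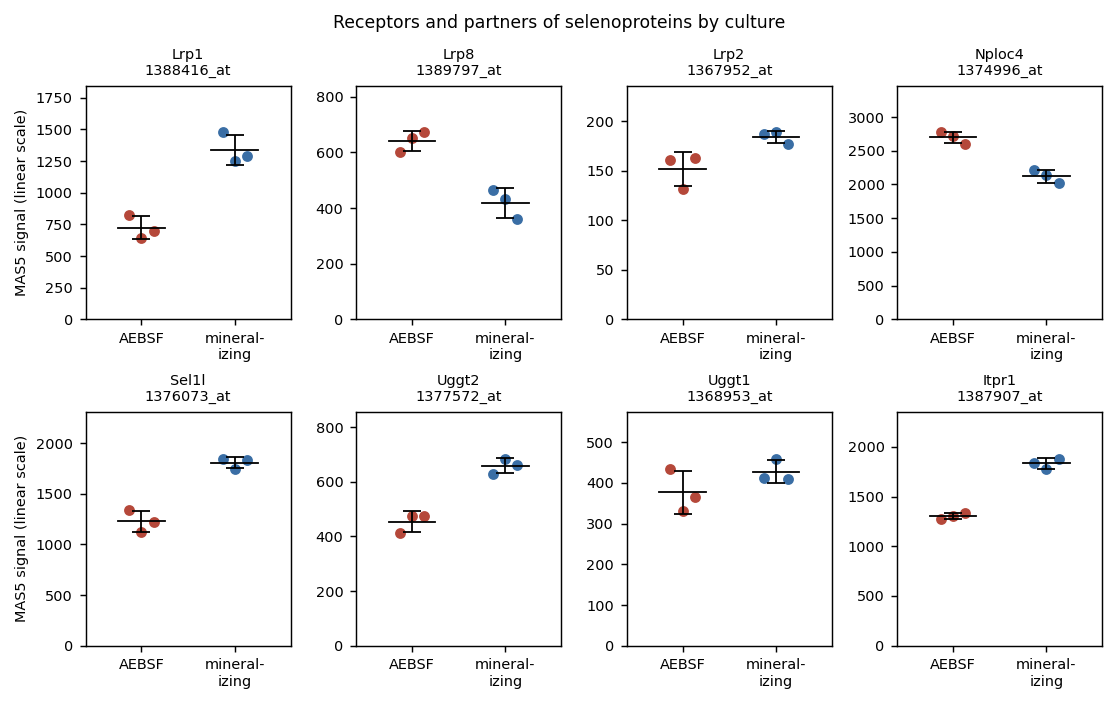
MAS5 signal (linear scale, each panel from 0) of Selenop receptors and of partners of Selenos, Selenof and Selenok, with AEBSF cultures at left and mineralizing cultures at right. Points are cultures, and bars give the mean and SD of 3 cultures. Lrp8 and Nploc4 lie higher and Lrp1, Sel1l, Uggt2 and Itpr1 lower with AEBSF.

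Some relatives of selenoproteins use cysteine in place of selenocysteine. Of 7 such genes 5 were tested and 0 passed the limma threshold, where 16.3% of all tested genes did. Of the 5, 1 had an unadjusted p under 0.05, as did 31.9% of all tested genes, and the median was -0.09. Gpx8, an ER peroxidase, read 1710, 1878 and 1905 with AEBSF, against 1925, 2193 and 2574 in mineralizing cultures (log2 fold change -0.28, limma adjusted p = 0.0677). Gpx8 passed with hybridization scaling (-0.42, limma adjusted p = 0.00477), with the replicate block (0.0381) and with mineralizing culture 1 left out (-0.38, 0.0257). Gpx7 and Msrb3, an ER peroxidase and a methionine sulfoxide reductase, had log2 fold changes of 0.04 and 0.06, and both turned negative, to -0.10 and -0.089, with hybridization scaling.

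Thiol and peroxide enzymes outside the selenoprotein family gave 4 rises and 2 falls among 21 tested, 28.6% against 16.3% of all tested genes, with a median of 0.09. This list too was chosen with earlier results of these data known, so the share is a description. Gclc, which makes the glutathione precursor that the Gpx enzymes depend on, rose to 1594 ± 53.4 with AEBSF, against 1214 ± 74.6 in mineralizing cultures (log2 fold change 0.39 ± 0.07 SE; by limma, adjusted p = 0.00307), and so did its second probe set (0.43, limma adjusted p = 0.00761). Sod2, the mitochondrial superoxide dismutase, Prdx6, a peroxiredoxin that reduces phospholipid peroxides, and Glrx2, a glutaredoxin, rose by 0.26, 0.22 and 0.21 on the log2 scale (limma adjusted p = 0.0184, 0.0201 and 0.0295). Slc7a11, the cystine carrier that feeds glutathione synthesis, and Prdx4, the ER peroxiredoxin, fell by 0.29 and 0.24 (limma adjusted p = 0.019 and 0.0194).

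A second Glrx2 probe set fell (log2 fold change -0.52, limma adjusted p = 0.00404), so the direction of Glrx2 depends on the probe set. For Srxn1, on the same list, the brighter probe set used in the counts did not pass (0.02, limma adjusted p = 0.877). A dimmer Srxn1 probe set passed higher (0.37, limma adjusted p = 0.0367). None of the 4 rises passed with hybridization scaling (limma adjusted p = 0.109 for Gclc, 0.504 for Sod2, 0.645 for Prdx6 and 0.724 for Glrx2). The Slc7a11 and Prdx4 falls passed with that scaling, but were lost with any array but AEBSF culture 3 left out (limma adjusted p between 0.0511 and 0.0748 for Slc7a11, and between 0.0526 and 0.0733 for Prdx4) and under a constant prior (0.0777 and 0.107), and Prdx4 also with median centring (0.0522). Of 17 alternatives, Gclc passed under 16, Sod2 under 12, Slc7a11 under 11, Prdx6 and Prdx4 under 10 each, and Glrx2 under 7. The count of 6 was 1 without AEBSF culture 1 or mineralizing culture 1, and 3 without mineralizing culture 2.

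The cells had the transcripts of their label: all 6 osteoblast markers lay above the filter, as did 9864 of 14217 genes. Their summed signals were 23886 to 24568 with AEBSF and 24522 to 25814 in mineralizing cultures. Ibsp, a bone matrix sialoprotein, made up most of that sum, at 17101 ± 251 with AEBSF and 16520.4 ± 750.1 in mineralizing cultures. Of the 6, 2 fell, where 9.22% of all tested genes passed lower. Phex, an endopeptidase, averaged 1645 ± 72.9 with AEBSF and 2725 ± 77.9 in mineralizing cultures (log2 fold change -0.73, limma adjusted p = 3.36e-05). Col1a1, a chain of type I collagen, averaged 617 ± 61.5 with AEBSF and 982 ± 91.2 in mineralizing cultures (-0.67, limma adjusted p = 0.00116). Of 4 measured hepatocyte markers, the cell type that makes most Selenop in the body, 2 lay above the filter and none passed, with summed signals of 195 to 241 with AEBSF and 213 to 294 in mineralizing cultures. The 5 macrophage markers summed to 165 to 185 with AEBSF and 172 to 252 in mineralizing cultures, and the 4 adipocyte markers to 276 to 385 with AEBSF and 368 to 407 in mineralizing cultures. Each of these lists had 1 marker above the filter. The 3 endothelial markers summed to 55.1 to 113 with AEBSF and 42.0 to 65.0 in mineralizing cultures, and the 4 muscle markers to 55.9 to 209 with AEBSF and 114 to 143 in mineralizing cultures, with 0 above the filter. The ratio of 3′ to 5′ GAPDH control signal, a sign of RNA integrity, was 1.05 to 1.08 with AEBSF and 1.02 to 1.06 in mineralizing cultures. That of beta-actin was 1.46 to 1.61 with AEBSF and 1.52 to 1.54 in mineralizing cultures. The part of these values in the results was not tested.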

How the data were processed

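RNA of 6 cultures was read on 1 array each. Each value deposited by the authors is an intensity, the MAS5 signal of a probe set computed with GCOS, per the submitters' processing notes; no version is named in the labels. Every array had a mean of 500.1 or 500.2 after trimming 2% at each end, so the arrays' total levels are set equal. Of 31042 probe sets that are not controls, 20826 had 1 symbol, which was updated through Entrez identifiers to RefSeq (GRCr8) for 20758; probe sets with several symbols were not named.

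Log2 signals of the 18625 probe sets above the 40th percentile of mean log2 signal (a signal of 67.2) were fitted in R 4.3.3 with limma 3.58.1 (lmFit, eBayes with a mean-dependent prior) for AEBSF minus mineralizing, with Benjamini-Hochberg adjustment over them and a threshold of 0.05. The fit was tested on simulated data. A gene was represented by its brightest probe set. Precision is limited by 3 arrays per group. The members and the lists were chosen with earlier results of these data known. Named genes are every member, up to 6 called genes per list by size (or the 3 brightest where fewer than 2 passed), and the 5 most correlated with Selenop. Sephs2, Secisbp2, Eefsec, Secisbp2l, Zdhhc6, Lrp2, Uggt1, Vcp, Ufd1, Derl1, Derl2, Syvn1, Srxn1, Phex, Col1a1 and Ibsp were named after their values were seen. Alternatives are given in the closing section. The labels give no batch. Protein sequences were not used here.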

Additional observations from a re-analysis of the deposited data

How the results depend on the processing

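As reported 2495 probe sets passed the threshold, against 885 under a constant variance prior and 1203 to 2257 with 1 array left out; without AEBSF culture 1 and mineralizing cultures 1, 2 and 3 it was 1626, 1203, 1239 and 1502. Hybridization scaling left 2576, but 119 higher and 2457 lower, against 1115 and 1380 as reported. The median of the 8 members, -0.17, was -0.31 with hybridization scaling and -0.23 when probe sets were averaged by gene, and between -0.20 and -0.13 with 1 array left out. With that average Gpx4 turned to -0.24, Glrx2 to -0.16 and Msrb3 to -0.035; with hybridization scaling Msrb3 turned to -0.089 and Gpx7 to -0.10.

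Calls among the other selenoproteins, 1 as reported, were 0 with median centring, no filter, a constant prior and the replicate block, 2 with the 60th percentile filter and a robust prior, and 0 to 1 with 1 array left out. In selenocysteine synthesis and insertion, 2 as reported, they were 1 with median centring, no filter and the replicate block, 0 with a constant prior and 0 to 3 with 1 array left out. In the cysteine relatives, 0 as reported, they were 1 with hybridization scaling and the replicate block, and 0 to 1 with 1 array left out. In the thiol and peroxide enzymes, 6 as reported, they were 3 with median centring, 2 with hybridization scaling, 1 with a constant prior and 1 to 6 with 1 array left out. In receptors and partners, 8 as reported, they ranged from 6 to 10.

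The cultures share replicate numbers, but same-numbered cultures did not deviate together (correlations 0.01, -0.12 and -0.04). With the replicate block 1802 probe sets passed, the cysteine relatives had 1 call and the receptors and partners 8. The cause of these differences was not tested. Probe sets with a mean log2 signal under the filter (a signal of 67.2), among them the second Selenop probe set, were not tested.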
